A study of Rattus norvegicus with 18 samples.

Results

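Pdx1 (ENSRNOG00000046458), Neurod1 (ENSRNOG00000005609) and Slc2a2 (ENSRNOG00000011875) are 3 genes tied to the identity of pancreatic beta cells. Whether they are specific to beta cells among islet cells was not tested here. They were taken by their Ensembl rat gene IDs, as 3 of the 27654 genes of a count table from 18 RNA sequencing libraries, by a rule that uses no measured value, although the genes were picked with earlier results of these data known. All 3 passed the filter on low counts, as did 14920 genes in all. The libraries came from islets of old and young rats that were held overnight in RPMI1640 with fetal serum (10%) and glucose (11.1 mM) and exposed to EdU (10 micromolar), a thymidine analogue that labels cells making DNA. Every group received the same medium and EdU, and the groups differed in the age of the rats and in the replicative status of the sorted cells. The groups were old quiescent (n = 4), old replicative (n = 4), young quiescent (n = 5) and young replicative (n = 5). The series text describes 9 batches of islets, each pooled from 2 rats and each the source of a quiescent and a replicating beta cell sample. The labels give the cell type as pancreatic islets, while the series text speaks of beta cells. Strain, exact age and sorting gate: not given in the sources used here.

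Pdx1 is a homeodomain transcription factor that is needed to form the pancreas and, in the adult, to keep beta cells producing insulin. Neurod1 is a basic helix-loop-helix transcription factor that drives endocrine differentiation and binds the insulin promoter together with a partner protein. Both factors act on genes of glucose sensing and insulin production, and Slc2a2 encodes GLUT2, the facilitative transporter through which rodent beta cells take up glucose. Loss of Slc2a2 and Pdx1 RNA is used in the field as a sign of a less mature beta cell.

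The proximal promoters are shown because the 3 genes belong to 1 regulatory circuit and their levels are compared here, with the letters that helix-loop-helix and homeodomain factors are known to read marked. Each run is the 250 bases before the annotated transcript start in RefSeq (GRCr8), 5′ to 3′ on the strand of the gene. Pdx1 lies at chr12:12799157-12799406 on the minus strand, Neurod1 at chr3:84770455-84770704 on the minus strand and Slc2a2 at chr2:113540120-113540369 on the plus strand. These are positions in GRCr8, whereas the submitters' processing notes name the build rn6 for the reads. Capitals mark CANNTG, which reads the same way on both strands, and TAAT or its reverse complement ATTA.
Pdx1: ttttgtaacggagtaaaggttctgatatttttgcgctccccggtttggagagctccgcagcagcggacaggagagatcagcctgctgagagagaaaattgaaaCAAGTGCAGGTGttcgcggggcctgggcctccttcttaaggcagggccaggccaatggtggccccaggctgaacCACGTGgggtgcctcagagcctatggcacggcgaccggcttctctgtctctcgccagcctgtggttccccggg
Neurod1: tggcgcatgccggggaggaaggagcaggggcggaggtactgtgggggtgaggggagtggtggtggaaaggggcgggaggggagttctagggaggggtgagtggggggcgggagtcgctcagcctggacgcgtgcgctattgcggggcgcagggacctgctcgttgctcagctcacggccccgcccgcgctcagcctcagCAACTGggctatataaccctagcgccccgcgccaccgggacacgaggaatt
Slc2a2: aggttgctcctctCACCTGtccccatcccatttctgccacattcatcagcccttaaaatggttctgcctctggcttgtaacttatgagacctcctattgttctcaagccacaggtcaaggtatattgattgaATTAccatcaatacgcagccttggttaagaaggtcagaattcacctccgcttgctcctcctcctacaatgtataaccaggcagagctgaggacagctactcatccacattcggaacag
The Pdx1 window held 3 CANNTG matches, 147, 141 and 73 bases before the start, of which the last, CACGTG, is a palindrome. Neurod1 held 1 match, 51 bases before the start, and Slc2a2 held 1, 237 bases before it. A TAAT or ATTA match was found in Slc2a2 alone, 118 bases before the start. No match of 1 motif overlapped a match of the other. Of 33469 promoter windows of this length, 65.5% held CANNTG and 57.0% held TAAT or ATTA, so these matches are common. The GC content was 59.6% for Pdx1, 69.2% for Neurod1 and 47.2% for Slc2a2, against a median of 51.2% over all windows.

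Slc2a2 RNA was lower in replicating than in quiescent beta cells, by 3.29-fold in old and 3.42-fold in young islets, and passed the 4-group test at both ages. In old islets the call was lost in the fit of the old libraries alone. Exact permutation tests that exchange libraries freely did not pass adjustment at either age. With so few libraries, no single one of these tests could pass adjustment on its own. Slc2a2 was lower in all 9 pairs of libraries with the same replicate number, taken here as batches. How many other genes were lower in all 9 was not counted. In young islets Pdx1 and Neurod1 had differences near 0 that did not pass the test. In old islets Pdx1 was far lower in 3 of the 4 replicative libraries and not in the other one, and Neurod1 was lower in the same 3 by a smaller factor. No age difference passed the test of the 4-group model for any of the 3 genes, within quiescent or within replicative cells.

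All 3 genes had reads in all 18 libraries. Total counts per library ran from 2723660 to 14222719. The members' counts ran from 40 (Pdx1 in old replicative replicate 3) to 14847 (Slc2a2 in young quiescent replicate 4). The lowest level, 12.6 CPM (counts-per-million, on library sizes scaled by the trimmed mean of M-values, TMM), has an exact 95% Poisson interval of 8.97 to 17.1 CPM. Intervals of this kind cover counting error only. The Pdx1 interval of old replicative replicate 2, 11.8 to 16.7 CPM, lies within that of replicate 3, so the order of these libraries is within counting error. Files and reference tables pair 0 of the 27654 IDs with names, and the names of the 3 genes come with the rule that chose them. Islet factors, granule genes, and markers of alpha, delta, acinar, stromal and other cells were for that reason not analysed here, and whether such cells moved with the groups was not tested. Libraries of the old replicative group stood further apart than those of the other groups. Their median SD of log2 CPM was 0.606 over 3080 abundant genes, against 0.198 to 0.342 elsewhere. This spread does not single out any library. Old replicative replicate 4 is the library in which Pdx1 and Neurod1 were nearly level, and it was not past the outlier bound used below. Results are given with and without it to show how far they rest on it. Leaving out the library that goes against a fall favours a call, so calls gained that way are not support. In sorted samples of this kind fewer cells of a type and less RNA per cell cannot be told apart.

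**Figure D1:**
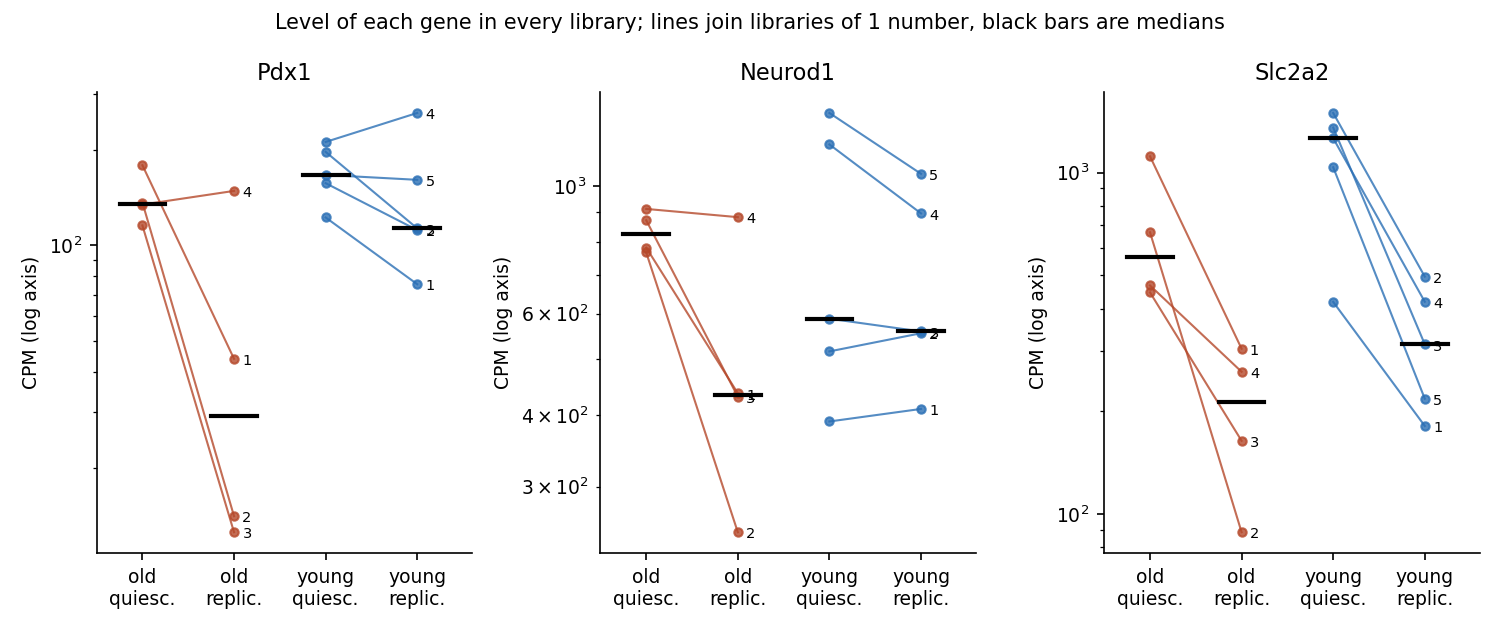
Level of Pdx1, Neurod1 and Slc2a2 in CPM (log axis) in each of the 18 libraries, by group; each line joins the quiescent and the replicative library of 1 replicate number, printed at its right end, and black bars are group medians. All 9 Slc2a2 lines go down, 7 of 9 Pdx1 lines and 7 of 9 Neurod1 lines go down, and old replicate 4 is nearly level for Pdx1 and Neurod1.

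Pdx1, the homeodomain factor, stood at 179, 136, 116 and 134 CPM in old quiescent replicates 1 to 4, and at 44.0, 14.1, 12.6 and 148 CPM in old replicative replicates 1 to 4. Old replicative replicate 4 was above 3 of the 4 old quiescent libraries, while the other three old replicative libraries lay below all of them. The old quiescent mean was 141 ± 26.7 CPM and the old replicative mean 54.8 ± 64.1 CPM (SD, n = 4 each). Without replicate 4 the latter was 23.6 ± 17.8 CPM (SD, n = 3). In rank, Pdx1 had a median place of 1427 among all genes of the table in the old quiescent group and 5604 in the old replicative group.

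In the model of all 4 groups, the log2 difference of Pdx1 between old replicative and old quiescent cells was -1.36 (SE 0.533, 95% interval -2.47 to -0.26), with an adjusted p of 0.0936 in edgeR's quasi-likelihood test with Benjamini-Hochberg adjustment over all genes tested. This did not pass the threshold of 0.05. In a fit of the 8 old libraries alone it was -1.29 (SE 0.689, edgeR adjusted p = 0.379). With the batch number as a block the value was -2.12 (SE 0.463) and passed in the 4-group model (edgeR adjusted p = 0.00822), and -2.05 (SE 0.594) without passing in the blocked fit of the old libraries alone (edgeR adjusted p = 0.108). Without old replicative replicate 4 it was -2.63 in the 4-group model (SE 0.432, edgeR adjusted p = 0.000313) and -2.53 in the old libraries alone (SE 0.507, edgeR adjusted p = 0.0252). Of the 8 omissions of 1 library, that one was the only one to give a call in either fit. With all libraries and no block Pdx1 passed in limma-trend on the deposited log2 values (-1.95, adjusted p = 0.0162) and in limma-voom with sample quality weights (-1.98, adjusted p = 0.0386). It did not pass in DESeq2 (-1.26, adjusted p = 0.0825) or in limma-voom with 1 weight per group (-2.02, adjusted p = 0.112). Genes called in either direction were 2147 in limma-trend, 1021 with sample quality weights, 3183 in DESeq2 and 620 with 1 weight per group. The main model called 2053. The call for Pdx1 in old islets therefore turned on 1 library, on the use of the batches and on the method. The direction did not change among the 21 alternatives run.

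In young islets Pdx1 stood at 122, 157, 197, 212 and 167 CPM in quiescent replicates 1 to 5, and at 75.5, 112, 113, 261 and 161 CPM in replicative replicates 1 to 5. The highest and the lowest of these 10 values were both replicative, and the groups overlapped. The quiescent mean was 171 ± 34.95 CPM and the replicative mean 144 ± 71.8 CPM (SD, n = 5 each). The log2 difference was -0.24 (SE 0.467, 95% interval -1.21 to 0.73), with an edgeR adjusted p of 1.00. The interval leaves room for a fall of more than 2-fold. The 2-group fit gave -0.23 (SE 0.268, edgeR adjusted p = 0.739).

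Neurod1, the helix-loop-helix factor, was the most even of the 3 genes in old quiescent cells, at 782, 767, 872 and 913 CPM in replicates 1 to 4, a mean of 833 ± 70.6 CPM (SD, n = 4). Old replicative replicates 1 to 4 stood at 436, 250, 430 and 883 CPM, a mean of 499.8 ± 269.8 CPM (SD, n = 4). As with Pdx1, replicate 4 lay within the quiescent range and the other three below it. The log2 difference was -0.74 (SE 0.375, 95% interval -1.51 to 0.04; edgeR adjusted p = 0.207) in the 4-group model and -0.65 (SE 0.328, edgeR adjusted p = 0.347) in the old libraries alone. With the batch number as a block it was -0.88 (SE 0.198) and passed in the 4-group model (edgeR adjusted p = 0.00844), but not in the blocked fit of the old libraries (-0.79, SE 0.267, edgeR adjusted p = 0.162). Without old replicative replicate 4 it was -1.21 (SE 0.368, edgeR adjusted p = 0.0264) in the 4-group model and -1.13 (SE 0.244, edgeR adjusted p = 0.0288) in the old libraries alone. No other omission of 1 library called Neurod1 in either fit.

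In young islets the Neurod1 levels of libraries with the same number lay close to each other. Quiescent replicates 1 to 5 stood at 389, 516, 588, 1182 and 1341 CPM, and replicative replicates 1 to 5 at 410, 555, 559, 897 and 1051 CPM. Replicates 4 and 5 were the highest of both groups, and replicate 1 the lowest of both. Quiescent libraries had a mean of 803 ± 428 CPM and replicative ones of 694 ± 268 CPM (SD, n = 5 each). The log2 difference was -0.21 (SE 0.334, 95% interval -0.90 to 0.48; edgeR adjusted p = 1.00). With the batch number as a block its error was smaller, at -0.13 (SE 0.173, edgeR adjusted p = 0.988).

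Slc2a2, the glucose transporter gene, stood at 1116, 669, 446 and 467 CPM in old quiescent replicates 1 to 4, and at 305, 88.6, 164 and 261 CPM in old replicative replicates 1 to 4. Every old replicative library lay below every old quiescent one. Such a complete separation in this direction was seen for 11.1% of the genes tested in old islets. The means were 674 ± 311 and 205 ± 97.3 CPM (SD, n = 4 each). The log2 difference was -1.72 (SE 0.407, 95% interval -2.56 to -0.88), a 3.29-fold fall that passed the test in the 4-group model (edgeR adjusted p = 0.00767). In the old libraries alone the size was nearly the same, at -1.64 (SE 0.430), and the adjusted p was 0.0601 in edgeR, above the threshold. Limma-voom with sample quality weights gave -1.62 (adjusted p = 0.330), also above it. With the batch number as a block it passed in both fits, at -1.76 (SE 0.263, edgeR adjusted p = 0.000348) with all groups and -1.67 (SE 0.335, edgeR adjusted p = 0.0219) in the old libraries alone.

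In young islets Slc2a2 stood at 418, 1494, 1354, 1260 and 1036 CPM in quiescent replicates 1 to 5. Replicative replicates 1 to 5 stood at 181, 496, 314, 419 and 218 CPM. The groups overlapped through young quiescent replicate 1, which lay below replicative replicate 2, was level with replicative replicate 4 and stood 2.31-fold above replicative replicate 1 of the same batch. Complete separation downward was seen for 2.64% of genes in young islets. The means were 1113 ± 422 and 326 ± 133 CPM (SD, n = 5 each). The log2 difference was -1.77 (SE 0.365, 95% interval -2.53 to -1.02), a 3.42-fold fall (edgeR adjusted p = 0.00429). It also passed in the young libraries alone (-1.74, SE 0.329, edgeR adjusted p = 0.00381) and with the block (-1.75, SE 0.230, edgeR adjusted p = 0.000143 with all groups, and -1.73, SE 0.138, edgeR adjusted p = 2.44e-05 in the young libraries). The call was lost without a filter on low counts (-1.81, edgeR adjusted p = 0.0620) and in limma-voom with 1 weight per group (-1.73, adjusted p = 0.0677).

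Read against all genes, 1 of the 3 members was called lower in replicating cells at each age, and it was Slc2a2 both times. In old islets 6.60% of the 14920 genes tested were called lower in the 4-group model, and 14.0% of the 3080 abundant genes, those whose average log2 CPM reached 6, a class that holds all 3 members. In young islets these shares were 0.214% and 0.877%. In the fits of 2 groups alone, 0 of the 3 members were called in old islets, where 1.18% of genes were called lower, and 1 in young islets, where 1.25% were. With the block, all 3 members were called lower in old islets in the 4-group model, beside 8.42% of all genes, and 1 in young islets, beside 0.556%. In the blocked 2-group fits 1 was called in old islets, beside 1.07% of genes, and 1 in young islets, beside 3.24%. Without old replicative replicate 4, all 3 were called lower in old islets in the 4-group model, beside 9.42% of genes. Without that library the 2-group fit called Pdx1 and Neurod1, beside 3.49% of genes.

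Among the 3080 abundant genes the median log2 difference was -0.24 in old and -0.10 in young islets. The fitted Slc2a2 value had 1.10% of these genes below it in old islets. In young islets it was the lowest value of all, with 0% below it. For Pdx1, 3.64% of abundant genes had a lower value in old and 32.4% in young islets, and for Neurod1 the shares were 20.4% and 35.9%. The 10 most abundant genes of the series, none of them a member, held a share of the counts that was also lower in replicating cells. In old islets it was 25.9% ± 1.69 in the quiescent and 16.3% ± 4.45 in the replicative group (SD, n = 4 each). In young islets it was 27.6% ± 1.92 and 20.8% ± 1.05 (SD, n = 5 each). With those 10 genes taken out of the library sizes, the Slc2a2 differences were -1.74 in old and -1.77 in young islets.

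**Figure D2:**
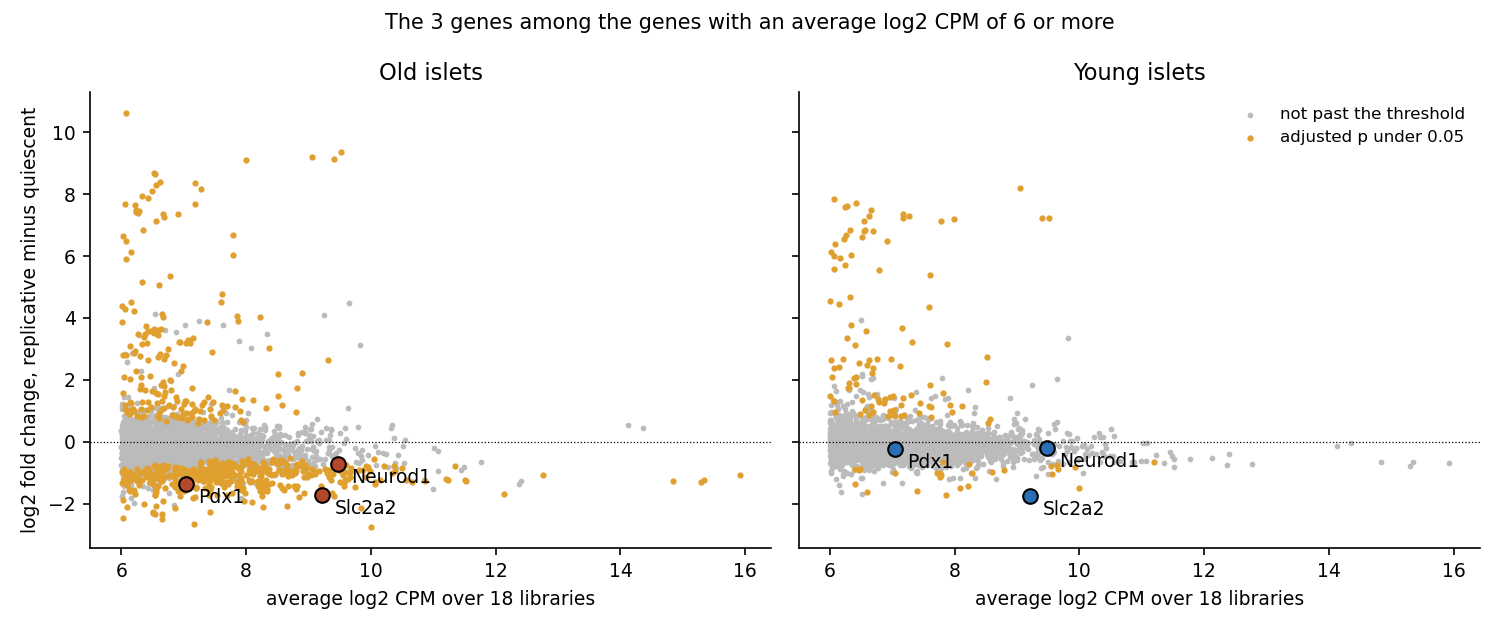
Log2 fold change between replicative and quiescent cells (vertical axis) against the average log2 CPM (horizontal axis) for the 3080 abundant genes, in old (left) and young islets (right); orange points passed the 4-group edgeR test and large circles are the 3 members. Slc2a2 is the lowest point of the young panel and has 1.10% of the points below it in the old panel. Pdx1 and Neurod1 lie at -0.24 and -0.21 in the young panel.

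The 9 batches allow each replicative library to be set against the quiescent library of the same number, a comparison added after the data were seen. Quiescent and replicative libraries of the same number deviated together from their group means in all 9 pairs (correlation 0.161 to 0.567 over 3080 genes), so same-numbered libraries were taken as 1 batch, which the labels themselves do not state. Within batches Slc2a2 fell in 9 of 9, by 1.76 on average on the log2 CPM scale (SD 0.614, n = 9), a 3.38-fold change. The exact sign-flip permutation test, two-sided, gave p = 0.00391, the smallest it allows, and an adjusted p of 0.0117 over the 6 measures tested. The share of all genes that fell in 9 of 9 batches was not computed, so how common such a fall is was not shown. Pdx1 was lower in 7 of 9 batches, with a mean of -1.11 (SD 1.37, n = 9), and did not pass after adjustment (exact permutation p = 0.0273, adjusted p = 0.0547). Neurod1 was lower in 7 of 9, with a mean of -0.46 (SD 0.585, n = 9; exact permutation p = 0.0391, adjusted p = 0.0586). Within 1 age, 4 or 5 pairs allow no exact p under 0.125 or 0.0625, so those tests cannot pass the threshold.

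The batch differences of Slc2a2 were -1.87, -2.91, -1.44 and -0.84 in old replicates 1 to 4, and -1.20, -1.59, -2.11, -1.59 and -2.25 in young replicates 1 to 5. Both ages thus had a fall of at least 1.79-fold in every batch. The batch differences of Pdx1 were -2.01, -3.25, -3.18 and 0.14 in old replicates 1 to 4, against -0.70, -0.49, -0.80, 0.30 and -0.05 in young replicates 1 to 5. For Neurod1 they were -0.84, -1.62, -1.02 and -0.05 in old, and 0.07, 0.11, -0.07, -0.40 and -0.35 in young batches. Replicate 2 had the largest fall of all 3 genes in old islets. Replicate 4 had the smallest fall of Slc2a2 and Neurod1, and no fall of Pdx1. For Pdx1 the replicative values of replicates 2 and 3 overlapped in counting error, so the order of their falls carries no weight.

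Because library scaling cancels in it, the ratio of the counts of 2 members within a library shows whether they changed by unequal amounts. The ratio of Slc2a2 to Neurod1 counts was 1.43, 0.872, 0.511 and 0.512 in old quiescent and 0.700, 0.355, 0.381 and 0.296 in old replicative replicates 1 to 4. In young quiescent replicates 1 to 5 it was 1.07, 2.90, 2.30, 1.07 and 0.773, and in young replicative replicates 0.443, 0.894, 0.563, 0.467 and 0.207. It fell in 9 of 9 batches, by 1.29 on the log2 scale on average (SD 0.520, n = 9), with the smallest p that the exact sign-flip permutation test allows (0.00391, adjusted 0.0117). Slc2a2 therefore fell by more than Neurod1 did. Compared without the batches, the same ratio did not pass in either age (exact permutation tests, p = 0.114 in old and 0.0159 in young, adjusted p = 0.218 and 0.0952 over 12 tests). The smallest exact permutation p possible was 0.0286 in old and 0.00794 in young islets, so no single test could pass that adjustment on its own.

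The ratio of Slc2a2 to Pdx1 was lower in the replicative library of 5 of 5 young batches, with geometric means of 6.08 (quiescent) and 2.30 (replicative). In old islets it was higher in 3 of 4 batches and lower in replicate 4, with geometric means of 4.50 (quiescent) and 5.63 (replicative). Over all 9 batches its mean log2 change was -0.64 (SD 1.23, n = 9; exact permutation p = 0.164, adjusted p = 0.164). The ratio of Pdx1 to Neurod1 was lower in 6 of 9 batches, with a mean log2 change of -0.66 (SD 0.942, n = 9; exact permutation p = 0.0742, adjusted p = 0.0891).

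**Figure D3:**
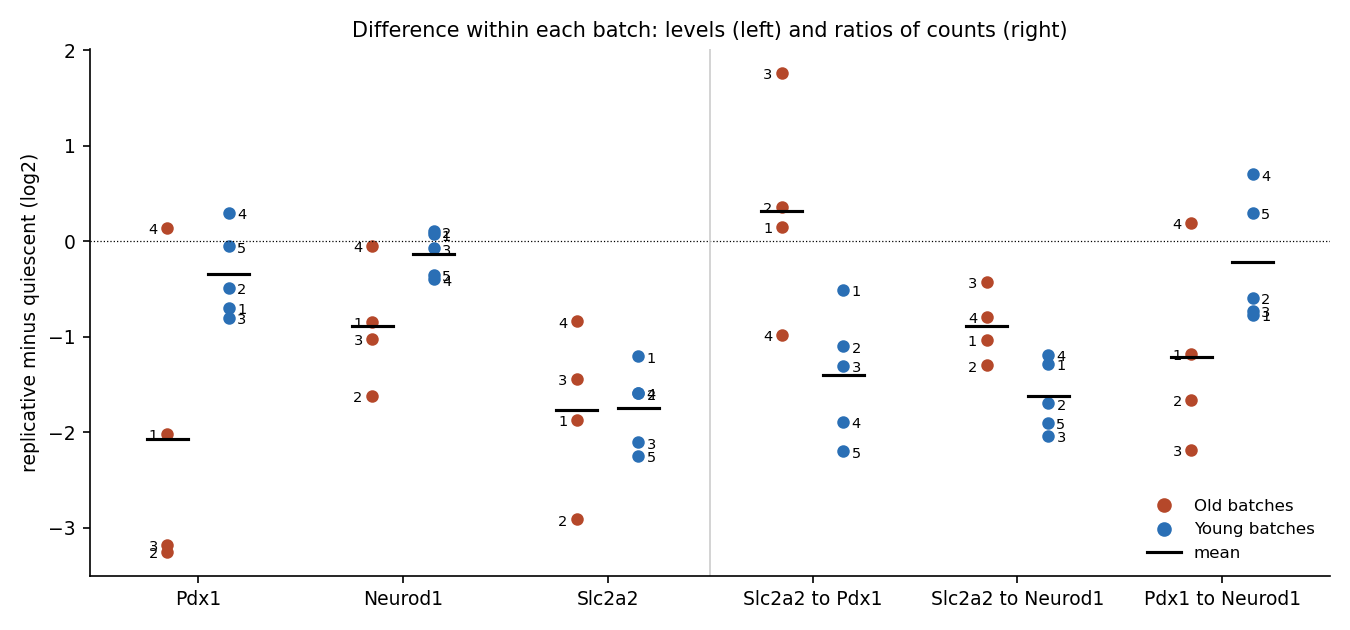
Replicative minus quiescent difference on the log2 scale within each batch, for the levels of the 3 genes (left, log2 CPM) and the ratios of their counts (right), with old batches in red, young batches in blue, replicate numbers beside the points and bars at the means. All 9 points lie below 0 for Slc2a2 and for its ratio to Neurod1; the old Pdx1 points split, with replicate 4 at 0.14 and the other three between -3.25 and -2.01.

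Whether the replication difference itself changed with age was tested by the interaction, old minus young. For Slc2a2 it was 0.05 (SE 0.532, 95% interval -1.05 to 1.15; edgeR adjusted p = 0.988), and its sign varied among the alternatives, with 18 of 29 above 0. For Pdx1 it was -1.12 (SE 0.704, 95% interval -2.58 to 0.34; edgeR adjusted p = 0.644), and for Neurod1 -0.53 (SE 0.501, 95% interval -1.56 to 0.51; edgeR adjusted p = 0.808). None of the 3 passed, beside 0.0268% of all genes that did. Without old replicative replicate 4 the Pdx1 interaction was -2.37 (SE 0.524) and passed (edgeR adjusted p = 0.0396), beside 0.661% of all genes called lower in that fit. No other of the 18 omissions of 1 library made the Pdx1 interaction pass. Set against each other by age, the batch differences of Pdx1 gave an exact permutation p of 0.0794 and those of Neurod1 0.0635, with an adjusted p of 0.119 for both over 6 measures. For the ratio of Slc2a2 to Pdx1 the difference between ages was 1.72 on the log2 scale (exact permutation p = 0.0317, adjusted p = 0.119), which did not pass either. The smallest exact permutation p that 4 against 5 batches allow is 0.0159. No single measure could pass adjustment over 6 on its own at that value. These permutation tests therefore cannot decide whether the replication difference changed with age.

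Old and young cells of the same status were compared directly. The order of group means for Slc2a2 was young quiescent, old quiescent, young replicative and old replicative, at 1113, 674, 326 and 205 CPM. The steps between ages did not pass the test, with log2 differences of -0.72 in quiescent (SE 0.381, 95% interval -1.51 to 0.07; edgeR adjusted p = 1.00) and -0.67 in replicative cells (SE 0.381, 95% interval -1.46 to 0.12; edgeR adjusted p = 0.314). For Pdx1 the means were 171 CPM in young quiescent, 144 in young replicative, 141 in old quiescent and 54.8 in the old replicative group. The middle pair has the opposite order by medians, at 113 CPM in young replicative and 135 CPM in old quiescent libraries. Only the old replicative group stood below the others, through 3 of its 4 libraries. The log2 difference of Pdx1 between old and young cells was -0.27 in quiescent (SE 0.497; edgeR adjusted p = 1.00) and -1.39 in replicative cells (SE 0.515, 95% interval -2.46 to -0.33; edgeR adjusted p = 0.101). Without old replicative replicate 4 the second was -2.63 (SE 0.423, edgeR adjusted p = 0.00123), beside 5.71% of all genes called lower in old. No other of the 9 omissions of 1 library made the second pass. With all libraries the difference of Pdx1 in replicative cells passed in DESeq2 (-1.38, adjusted p = 0.0497) and in limma-trend on the deposited log2 values (-1.98, adjusted p = 0.0159). These settings called 2251 and 1541 genes in either direction, against 1069 in the main model. The Pdx1 difference did not pass in limma-voom with sample quality weights or with 1 weight per group, which called 190 and 30 genes. For Neurod1 the order was old quiescent, young quiescent, young replicative and old replicative, at 833, 803, 694 and 499.8 CPM. Its log2 differences were 0.05 in quiescent (SE 0.354; edgeR adjusted p = 1.00) and -0.47 in replicative cells (SE 0.357; edgeR adjusted p = 0.473).

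The 4-group edgeR model called none of the 3 members in the age comparisons, where it called 0.0268% of genes in quiescent and 7.16% in replicative cells in either direction. The edgeR fits of 2 groups alone called 2.01% and 0.466% of genes, again without a member. Exact permutation tests of log2 CPM, which use no shared spread and exchange libraries freely, gave raw p-values of 0.0286 (old) and 0.0238 (young) for Slc2a2 between replicative and quiescent cells, where the first is the smallest that 4 against 4 libraries allow. Neither passed adjustment over the 12 tests of the 3 members (adjusted p = 0.171 for both), nor did any other of the 12 (adjusted p from 0.254 to 0.730). The smallest exact permutation p for 5 against 5 libraries is 0.00794. Even at its smallest possible p, no single test could pass adjustment over 12 on its own.

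**Figure D4:**
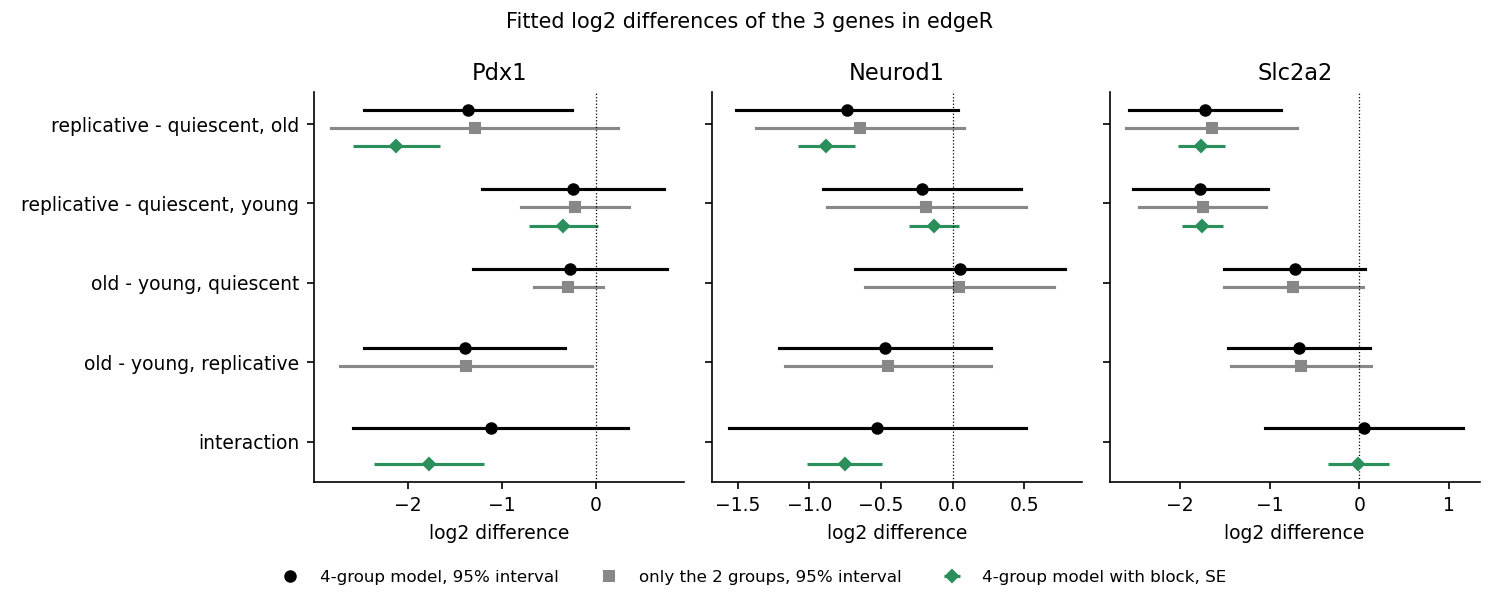
Fitted log2 differences (horizontal axis) of Pdx1, Neurod1 and Slc2a2 in 5 comparisons (vertical axis); black circles with 95% intervals come from the edgeR model of all 4 groups, grey squares with 95% intervals from fits of the 2 groups compared, and green diamonds with standard errors from the model with the batch number as a block. The Slc2a2 intervals lie below 0 in both replication comparisons, and the Pdx1 value in old islets moves from -1.36 to -2.12 with the block.

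The members varied unequally among themselves. Within old replicative libraries the standard deviation of log2 CPM was 1.65 for Pdx1, 0.75 for Neurod1 and 0.80 for Slc2a2 (n = 4). Of the abundant genes, 94.7% had a smaller spread than Pdx1 in that group. In young quiescent libraries Neurod1 and Slc2a2 were the variable ones, with 0.78 and 0.74 against a median of 0.298, and Pdx1 had 0.31 (n = 5). Slc2a2 was also variable in old quiescent cells, at 0.611 against a median of 0.198 (n = 4), with 94.8% of abundant genes below it.

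Across the 18 libraries Pearson's r of log2 CPM was 0.720 between Pdx1 and Neurod1, 0.717 between Pdx1 and Slc2a2, and 0.516 between Neurod1 and Slc2a2. These values describe points that share library, batch and group differences, and they carry no test. With the group means removed they were 0.669, 0.568 and 0.396. The sign was not the same in every group: over the 4 old quiescent libraries r was -0.57 between Pdx1 and Neurod1 and -0.79 between Neurod1 and Slc2a2. Many other genes were more like Pdx1 than its fellow members were, and Neurod1 held rank 825 in likeness to Pdx1. The genes most like Pdx1 were ENSRNOG00000015986 (r = 0.962) and ENSRNOG00000016252 (r = 0.954), those most like Neurod1 were ENSRNOG00000006653 (r = 0.900) and ENSRNOG00000053060 (r = 0.893), and those most like Slc2a2 were ENSRNOG00000011016 (r = 0.919) and ENSRNOG00000006200 (r = 0.905). The likeness was taken over 18 libraries among 11556 other genes with an average log2 CPM of at least 2. Over the 9 quiescent libraries alone, r was 0.630 and 0.366 for the genes named for Pdx1, 0.803 and 0.813 for those named for Neurod1, and 0.918 and 0.888 for those named for Slc2a2.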

How the data were processed

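RNA was measured in 18 libraries of sorted rat islet cells, made with a stranded total RNA kit after extraction with a kit for fixed tissue and proteinase K, per the labels' protocols. The authors deposited unscaled counts, as whole numbers for each Ensembl gene ID. The submitters' processing notes list STAR, DESeq2 and rn6 without a role. Counter and strand setting: not given in the sources used here; reads shared by overlapping genes could not be set apart. The deposited log2 table was recomputed from the counts as log2 of the size-factor scaled count plus 1, to within 5.15e-14; it was used as an alternative only. No per-sample column was left unused.

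Libraries were grouped by their titles. Counts were tested in R 4.3.3 with edgeR 4.0.16 (filterByExpr, TMM, robust quasi-likelihood fit, 4 group means over 18 libraries), with Benjamini-Hochberg adjustment over 14920 genes and a threshold of 0.05. Standard errors are the fold change over the square root of F. The test was tried on simulated data with the same spread in every group. That trial does not show how the test holds under the unequal spread of these groups. Log2 CPM used a prior count of 2. Exact permutation tests used scipy 1.17.1. A replicate is a batch of 2 pooled rats. The p-values of the unblocked edgeR fits measure the spread between libraries within groups, pooled over the groups, and ignore shared batches. Those of the blocked fits and the sign-flip tests measure the spread of the differences within batches. The members and gene lists were chosen with earlier results of these data known. Named genes are the 3 members and, for likeness, at most 2 IDs per member, since IDs could not be matched to names; the fixed gene lists were not run. The batch number was taken as a block because same-numbered libraries correlated at over 0.1 in 9 of 9 pairs, and each matched its own number best. Alternatives were other scalings, filters, DESeq2 1.42.0, limma 3.58.1, thinning, blocks and leaving out libraries. Tests within batches, of ratios, and single-library omissions in the old 2-group fit were chosen after seeing the data.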

Additional observations from a re-analysis of the deposited data

Results flagged for a closer look

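Slc2a2 in young quiescent replicate 1 lay apart from the other four libraries of its group, at 8.71 on the log2 CPM scale (418 CPM) where the others ran from 10.02 to 10.55. Its gap to the nearest library was 0.713 of the range of the group, just above Dixon's 95% bound of 0.71 for 5 samples. Of 24 combinations of a group with a gene or a ratio that were looked at, it was the only one past the bound, and chance gives about 1 in 20. Pdx1 and Neurod1 were also lowest in this library among young quiescent ones, at 122 and 389 CPM. The replicative library of the same number had the lowest Slc2a2, Pdx1 and Neurod1 of its group as well, at 181, 75.5 and 410 CPM. Without young quiescent replicate 1 the Slc2a2 difference between young replicative and quiescent cells was -1.97 on the log2 scale (edgeR adjusted p = 0.000814).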

How the results depend on the processing

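Of 339 values of the 15 fitted differences under other settings, 322 kept their side of the threshold, 5 lost a call, 12 gained one and 0 turned a called sign. Slc2a2 in old islets lost its call in the fit of the old libraries alone (-1.64), in limma-voom with sample quality weights (-1.62, adjusted p = 0.330) and with 1 weight per group (-1.80, adjusted p = 0.365). In young islets it lost it with 1 weight per group (-1.73, adjusted p = 0.0677) and without a low-count filter (-1.81, edgeR adjusted p = 0.0620). All 18 single-library omissions in the 4-group model kept the Slc2a2 calls, with edgeR adjusted p from 0.00604 to 0.0364 in old and 0.000814 to 0.0225 in young islets. Pdx1 in old islets gained a call with the replicate block (-2.12), quality weights (-1.98) and limma-trend on the deposited log2 values (-1.95), and lay between -2.63 and -1.06 over omissions of 1 library. Pdx1 between old and young replicative cells gained one in DESeq2 (-1.38) and limma-trend (-1.98), with a range of -2.63 to -1.07 over omissions. Its interaction ran from -2.37 to -0.79. Neurod1 in old islets gained a call with the replicate block (-0.88) and ran from -1.21 to -0.54 over omissions. Only quality weights called Pdx1 in young islets (-0.72) and Slc2a2 between old and young quiescent cells (-1.06). With sample quality weights, 2935 and 1571 genes were called in these comparisons, against 368 and 4 in the main model. The replicate block changed no other call in the 4-group model; in the 2-group fits it gave Slc2a2 its call in old islets. The cause of these changes was not tested. Within batches, Pdx1 passed without old or young batch 4 (adjusted p = 0.0469 each), as did Neurod1 without young batch 2 and the Pdx1 to Neurod1 ratio without young batch 4 (adjusted p = 0.0469 each); Slc2a2 and its ratio to Neurod1 passed whichever batch was left out (adjusted p = 0.0234).

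Counts of genes called moved widely: from 473 to 3183 around 2053 for replication in old, 293 to 2935 around 368 in young, 0 to 1571 around 4 for age in quiescent, 30 to 2251 around 1069 for age in replicative cells, and 0 to 291 around 4 for the interaction. The fewest counts behind a value were 40 and 135, for Pdx1 in old replicative replicates 3 and 2.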
